A study of Homo sapiens with 60 samples.

Results

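The interferon response was followed through 9 genes in HCT116 spheroids, balls of a human colorectal cancer line: the antiviral effectors IFIT1, IFIT2, IFIT3 and IFIT5, the RNA sensors DDX58 and IFIH1, the ubiquitin-like modifier ISG15, and the transcription factors IRF1 and IRF9. They were taken by symbol as 9 of the 29744 genes in the table, and all 9 were among the 11298 genes that passed the filter on low counts. The study measured 60 libraries in 12 groups of 5, made of 6 treatments in each of 2 media. In Medium 2 and again in Medium 1, spheroids had received nothing or 1 of 5 exposures. Butyrate, kynurenine and kynurenic acid were each given at 1 µM, hemin was given at 0.1 µM, and the last exposure combined hemin with kynurenine at 1 µM, with no hemin dose in its title. Compounds were present from day 1 to day 8 after seeding in agarose wells. All groups grew in high-glucose DMEM with serum, and all share the 1 cell line. The series compares spheroids sampled directly with spheroids held for 3 h in a nutrient-deprived medium, and the labels do not tie either state to Medium 1 or Medium 2, so the media keep their labelled names. A treatment entry in the labels calls all 60 samples untreated and nutrient-rich, whatever their title says. Gut bacteria make the fatty acid butyrate, hemin is the oxidised iron ring of blood pigment, and kynurenine and kynurenic acid are products of tryptophan breakdown.

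Cells sense foreign or misplaced double-stranded RNA through DDX58, which encodes RIG-I, and IFIH1, which encodes MDA5. Both signal through the mitochondrial adaptor MAVS to the factor IRF3 and induce interferons. Secreted type I and type III interferons act through JAK kinases on a complex that holds STAT2 and IRF9 and binds interferon-stimulated response elements, which raises IFIT, ISG15 and sensor genes. IFIT proteins bind viral RNA or restrain translation, IFIT3 stabilises IFIT1, and ISG15 is attached to other proteins or secreted. IRF1 is induced by interferons and NF-κB and drives antigen presentation genes. The receptor for type III interferons is largely restricted to epithelium, which includes that of the gut.

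Library totals ran from 1346135 to 3083231 counts with a median of 1901981. Each count is a 3'-end read tagged with a molecular identifier, so a count does not grow with transcript length. Levels are given as CPM, which are counts scaled to a common library total with TMM factors. Of 8 epithelial markers, 7 passed the filter, and their summed level was 1230 to 1600 CPM in Medium 2 and 1240 to 1830 CPM in Medium 1. Summed immune markers stayed at or below 5.37 CPM in every library. VIL1 was at 0 in every library. Fibroblast markers summed to 0 to 9.38 CPM in Medium 2 libraries and 5.45 to 14.5 CPM in Medium 1 libraries, nearly all of it COL1A1, while COL1A2 and LUM were at 0 and DCN had 1 count in all. Endothelial markers summed to at most 2.43 CPM. Libraries stood apart most in well A7 (Medium 2, kynurenine), at a root mean square log2 distance of 0.77 from their group, and in well B2 (Medium 1, butyrate), at 0.64, against a median of 0.43. The media also occupied different parts of the plate, so medium and plate position cannot be told apart. Each group likewise filled a run of neighbouring wells, so exposure and plate position cannot be told apart either. In these bulk samples, fewer cells with a transcript and less RNA per cell cannot be told apart. The titles call the 5 libraries of a group biological replicates without saying how they were separated, and p-values cover the spread among these libraries.

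The 4 IFIT genes lie together on the forward strand of chromosome 10 in GRCh38, with IFIT2 at chr10:89302046-89309271, IFIT3 at chr10:89327997-89340968, IFIT1 at chr10:89392623-89406487 and IFIT5 at chr10:89414568-89420997. The other members are spread over the genome: DDX58, now named RIGI, at chr9:32455302-32526196, IFIH1 at chr2:162267074-162318684, ISG15 at chr1:1013497-1014540, IRF1 at chr5:132481609-132490773 and IRF9 at chr14:24161265-24166565. Exons of IFIT2, ISG15 and IRF1 overlap those of genes on the opposite strand, and exons of IFIT2 and IRF9 overlap those of genes on the same strand, so reads there could be shared out between genes. Estimated counts were not whole in 58.3% of libraries for IRF1, 36.7% for IFIT1 and 11.7% for IFIT3, as happens when reads are divided among genes or transcripts. For IFIT1 the departures from whole numbers were tiny, such as 669.997 counts in well B7. All counts of IFIT2, ISG15 and IRF9 were whole. Promoter sequences of 8 members were found in RefSeq (GRCh38.p14), and stretches upstream of the first exon are shown for 4 of them. IFIT2 had no entry and was not searched. Capitals mark the core of the interferon-stimulated response element, 2 copies of GAAA separated by any 2 bases, on either strand in ISG15, IFIT3 and IFIT1, and TTCNNNGAA, the core of the STAT-binding GAS element, in IRF1. The 2 matches in ISG15 overlap.
ISG15, chr1:1013247-1013422, forward strand: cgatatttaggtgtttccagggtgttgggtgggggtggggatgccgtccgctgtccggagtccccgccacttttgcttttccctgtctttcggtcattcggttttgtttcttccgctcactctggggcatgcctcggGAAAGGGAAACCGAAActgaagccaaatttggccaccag
IFIT3, chr10:89327747-89327893, forward strand: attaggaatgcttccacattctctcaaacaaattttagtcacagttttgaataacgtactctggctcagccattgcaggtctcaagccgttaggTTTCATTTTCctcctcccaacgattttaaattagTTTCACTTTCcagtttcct
IFIT1, chr10:89392373-89392545, forward strand: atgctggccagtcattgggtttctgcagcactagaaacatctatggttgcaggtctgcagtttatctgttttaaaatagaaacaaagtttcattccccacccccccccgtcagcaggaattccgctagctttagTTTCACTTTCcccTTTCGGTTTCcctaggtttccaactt
IRF1, chr5:132490799-132491023, reverse strand: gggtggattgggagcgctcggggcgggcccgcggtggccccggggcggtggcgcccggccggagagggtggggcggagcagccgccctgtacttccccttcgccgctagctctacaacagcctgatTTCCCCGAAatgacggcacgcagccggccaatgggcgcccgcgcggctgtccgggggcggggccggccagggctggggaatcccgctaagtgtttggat

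In the 250 bases upstream of the start, the response element core was found on either strand in IFIT1, IFIT3, IFIT5, IFIH1 and ISG15. There were 3 matches in IFIH1 and 2 in each promoter of the others. IFIT3 had 2 promoter entries, of which only the upstream one is shown. The core occurs in 3.02% of the 35116 human promoters of that length, and in 3.71% of genes. TTCNNNGAA was found once each in IRF1 and IRF9 and occurs in 6.57% of promoters and 8.09% of genes. Neither motif is in that window of DDX58. A match describes the sequence only and is no measurement of binding.

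Between untreated spheroids, 6 of the 9 genes were higher in Medium 2 than in Medium 1, where 2.69% of all tested genes were called higher. They were the 4 IFIT genes, DDX58 and IRF1, with rises of 1.57-fold to 2.31-fold and no overlap between the 5 libraries of each medium. The share of all tested genes without such overlap was not counted. The other 3, IFIH1, ISG15 and IRF9, had positive fold changes that did not pass. The median log2 fold change of the 9 was 0.68, against 0 over all tested genes. All tests are edgeR quasi-likelihood tests with Benjamini-Hochberg adjustment over the 11298 genes, and a gene is called at an adjusted p under 0.05.

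IFIT1, which binds the 5' end of viral RNA, was at 560.2, 546.8, 578.9, 507.2 and 498.5 CPM in untreated Medium 2 libraries, against 249.6, 295.8, 311.8, 272.4 and 320 CPM in untreated Medium 1 libraries. The lowest Medium 2 library thus lay well above the highest Medium 1 library. Its log2 fold change was 0.89 (adjusted p = 1.22e-08, SE 0.11). IFIT2, linked to cell death and restraint of translation, was at 225.7, 198.6, 265.5, 183.6 and 185.5 CPM in Medium 2 and 72.64, 93.17, 91.7, 93.83 and 107.7 CPM in Medium 1. This was the largest change among the 9, with a log2 fold change of 1.21 (adjusted p = 1.84e-08, SE 0.15). IFIT3, the partner of IFIT1, was at 315.2, 287.7, 373.3, 268.1 and 295 CPM in Medium 2 and 133.6, 136.6, 157.1, 171.3 and 165.1 CPM in Medium 1. Its libraries were also fully separated, with a log2 fold change of 1.01 (adjusted p = 6.26e-09, SE 0.12). IFIT5, which binds other 5' RNA ends, was at 52.53, 59.92, 63.77, 49.53 and 58.14 CPM in Medium 2 and 34.61, 37.54, 29.34, 39.95 and 35.9 CPM in Medium 1. Its groups did not overlap either, with a log2 fold change of 0.68 (adjusted p = 0.000188, SE 0.13).

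The sensor DDX58 was at 117.9, 133.9, 122.6, 89.81 and 109.5 CPM in untreated Medium 2 libraries, against 74.59, 78.7, 60.52, 76.27 and 76.42 CPM in untreated Medium 1 libraries. The groups did not overlap, and the log2 fold change was 0.65 (adjusted p = 0.000441, SE 0.13). IFIH1, the sensor of long double-stranded RNA, was at 50.39, 44.8, 58.28, 29.72 and 38.35 CPM in Medium 2 and 33.64, 34.83, 30.57, 28.45 and 40 CPM in Medium 1. Its groups overlapped, and the log2 fold change of 0.41 had a 95% interval of 0.07 to 0.74 and an adjusted p of 0.153. The same treatment pair therefore gave a call for 1 of the 2 sensors, and whether the sensors differ from each other was not tested.

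ISG15 was at 136.2, 287.2, 199, 163.8 and 154.6 CPM in untreated Medium 2 libraries, against 126.7, 134.3, 97.81, 132.6 and 140.5 CPM in untreated Medium 1 libraries. One Medium 2 library, in well H4, was far above the rest, and the groups overlapped. The log2 fold change was 0.57 with a 95% interval of 0.16 to 0.98 and an adjusted p of 0.0824. Without that library the log2 fold change was 0.38, with an adjusted p of 0.361. It passed when only the groups compared were fitted and when wells B2 and A7 were left out. IRF1 was at 41.81, 39.94, 38.48, 40.28 and 35.87 CPM in Medium 2 and 14.62, 23.07, 23.84, 20.58 and 21.54 CPM in Medium 1. Its Medium 2 libraries were tightly grouped and all higher, with a log2 fold change of 0.92 (adjusted p = 4.4e-05, SE 0.16). IRF9, the DNA-binding partner of STAT2, was at 17.69, 11.34, 12.09, 9.905 and 12.37 CPM in Medium 2 and 13.65, 5.88, 7.336, 7.264 and 8.206 CPM in Medium 1. These values rest on 6 to 33 counts per library over the series, the groups overlapped, and the log2 fold change of 0.58 had an SE of 0.26 and an adjusted p of 0.194.

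**Figure D1:**
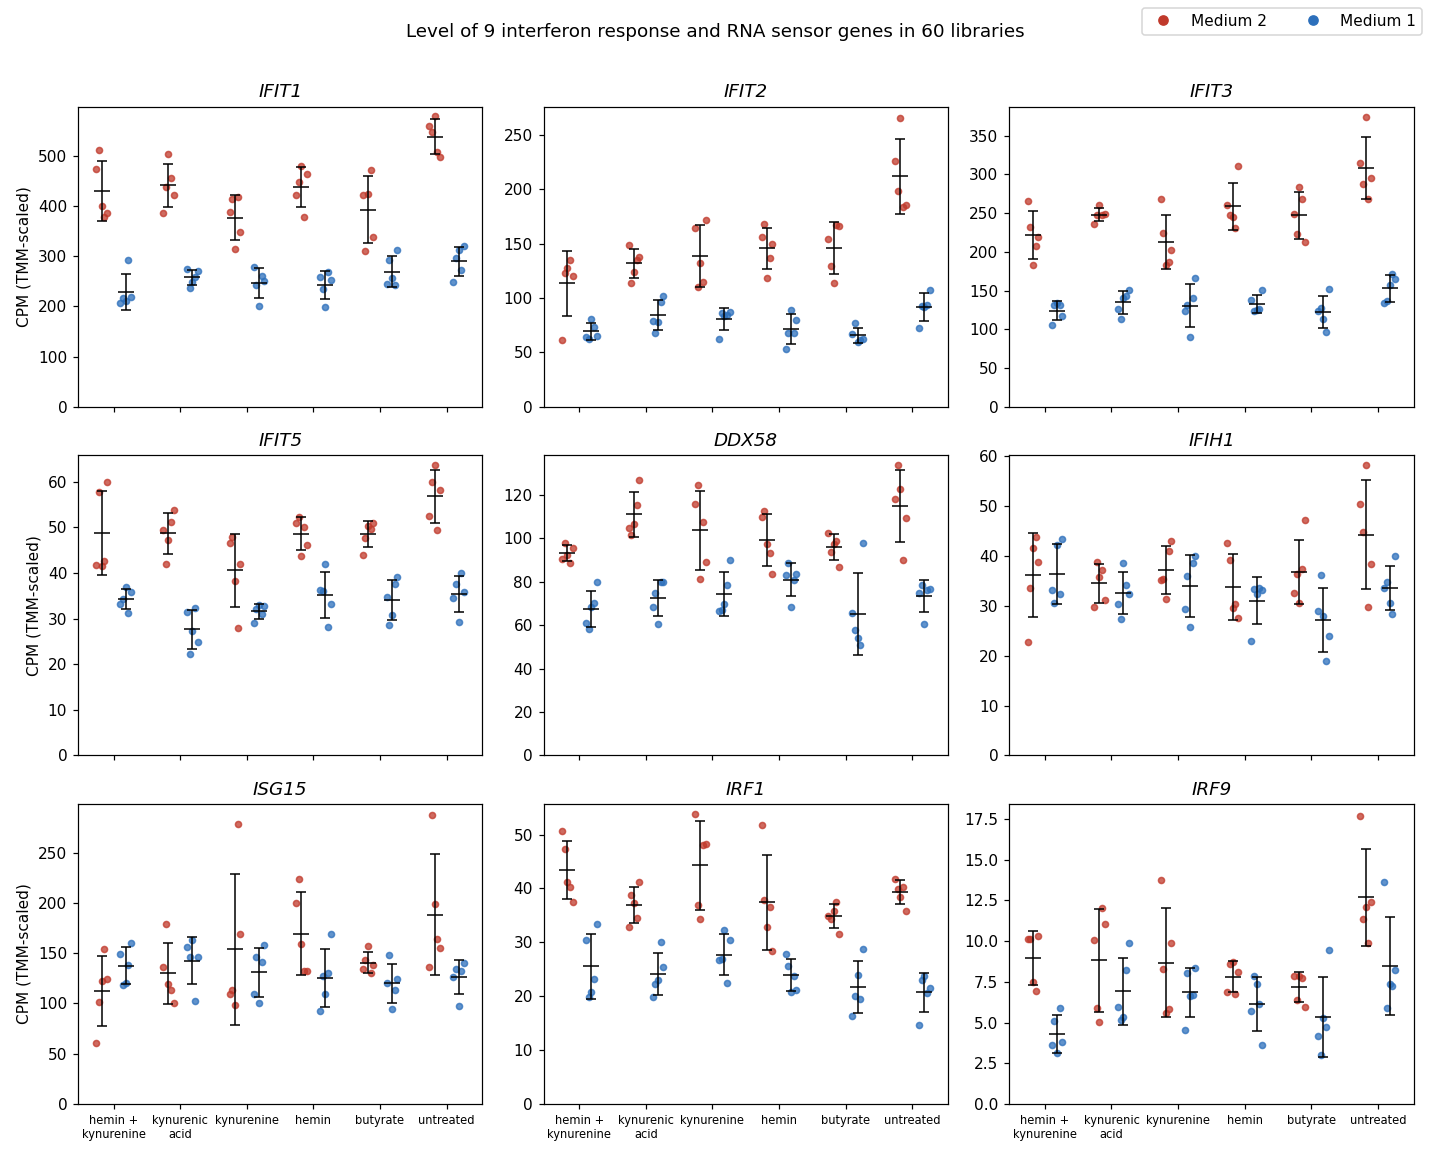
Level of each of the 9 genes in CPM (TMM-scaled), with one point per library, a bar for the mean and whiskers for 1 SD of the 5 libraries, Medium 2 in red and Medium 1 in blue for each treatment. For IFIT3 all 30 Medium 2 libraries lie above the highest Medium 1 library, while for ISG15 only 6 do.

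The media were next compared within each exposure, where no libraries are shared with the untreated comparison. IFIT1, IFIT2, IFIT3 and IRF1 were called higher in Medium 2 under all 6 treatments, untreated included. With butyrate 6 members were higher (4.51% of all tested genes called higher), with hemin 5 (12.6%), with kynurenine 5 (3.73%), with kynurenic acid 6 (4.30%) and with hemin plus kynurenine 7 (8.02%). When only the groups compared were fitted, DDX58 (adjusted p = 0.0604) and IFIT5 (adjusted p = 0.0534) missed the threshold with butyrate, and DDX58 (adjusted p = 0.109) and IRF1 (adjusted p = 0.0513) missed it with kynurenine. IFIT2 had its smallest log2 fold change with kynurenic acid, at 0.64 (adjusted p = 0.00386, SE 0.15), where it was at 132 ± 13.4 CPM in Medium 2 and 84.7 ± 13.9 CPM in Medium 1 (SD, n = 5 each). IFIT1 had its smallest with butyrate, at 0.54 (adjusted p = 0.000428, SE 0.11), where it was at 393 ± 66.5 CPM in Medium 2 and 269.5 ± 31 CPM in Medium 1 (SD, n = 5 each). IFIT5 missed the threshold with kynurenine alone (adjusted p = 0.0727), and without the library in well A7 it passed at a log2 fold change of 0.49 (adjusted p = 0.012). DDX58 missed it with hemin (log2 fold change 0.30, adjusted p = 0.0871), but passed with counts thinned to equal depth (adjusted p = 0.039). IRF9 passed with hemin plus kynurenine, at 8.98 ± 1.65 CPM in Medium 2 and 4.32 ± 1.16 CPM in Medium 1 (SD, n = 5 each), a log2 fold change of 1.05 (adjusted p = 0.00633, SE 0.28).

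IFIH1 and ISG15 were called in none of the 6 treatments. Under other settings, IFIH1 with butyrate passed with counts thinned to equal depth (adjusted p = 0.037). It also passed without the library in well G1 (adjusted p = 0.0443). ISG15 had negative values of -0.14 with kynurenic acid (95% interval -0.55 to 0.28) and -0.29 with hemin plus kynurenine (95% interval -0.70 to 0.12). Averaged over the 6 treatments, with 30 libraries a medium, 8 of the 9 genes were higher in Medium 2, where 22.8% of all tested genes were called higher. IFIT2 had a log2 fold change of 0.92 (adjusted p = 2.76e-19, SE 0.06) and IFIT3 one of 0.90 (adjusted p = 4.11e-23, SE 0.05). IFIT1 followed at 0.76, IRF1 at 0.71, IFIT5 at 0.56, IRF9 and DDX58 at 0.51 each, and IFIH1 at 0.19 (adjusted p = 0.0181, SE 0.07). ISG15, at 0.17 (adjusted p = 0.0876, SE 0.08), did not pass. It passed when the library in well H6 or that in well H7 was left out, with adjusted p of 0.0471 and 0.0381. The 9 genes had a median of 0.56, against -0.005 over all tested genes.

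**Figure D2:**
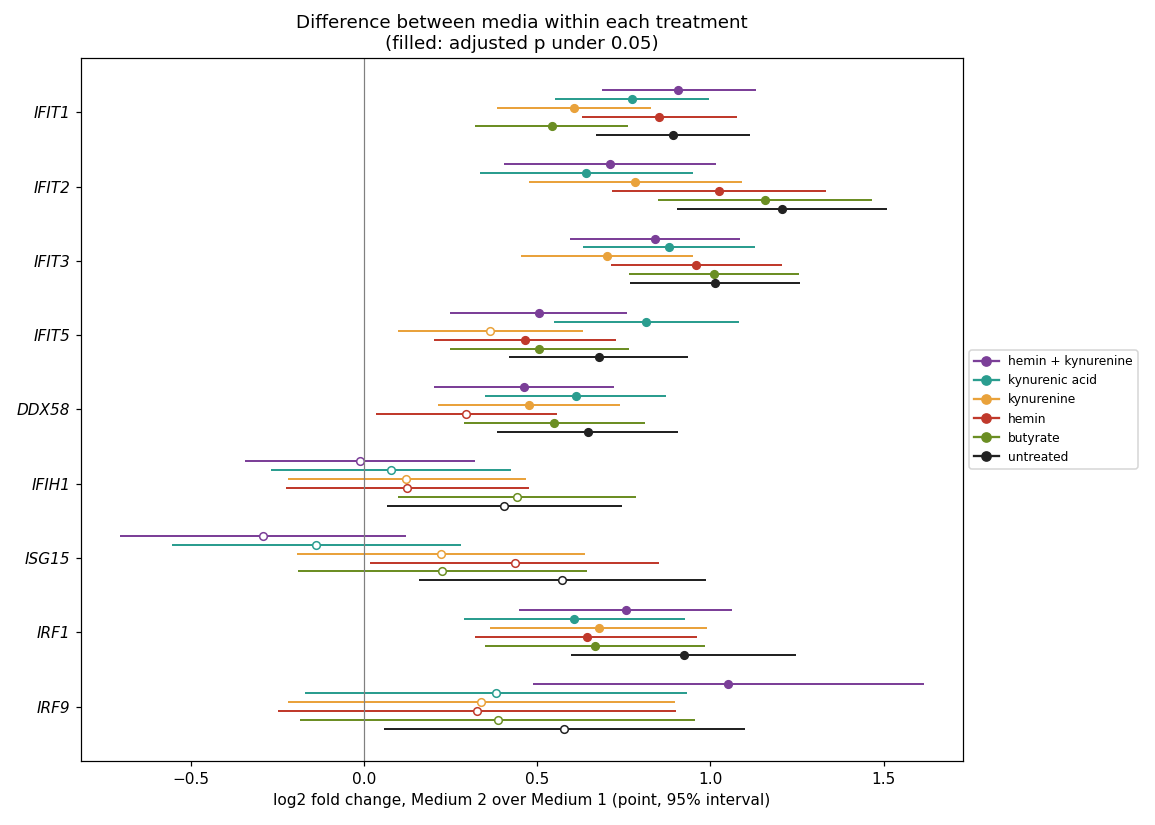
Log2 fold change of Medium 2 over Medium 1 for each gene within each of 6 treatments, as a point with its 95% interval; filled points passed an adjusted p of 0.05. IFIT1, IFIT2, IFIT3 and IRF1 are filled in all 6 treatments and lie between 0.54 and 1.21, while every point of IFIH1 and ISG15 is open.

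Ordering the 12 group means gave the same outline for most members. All 6 Medium 2 means lay above all 6 Medium 1 means for IFIT1, IFIT2, IFIT3, IFIT5, DDX58 and IRF1. How many of all tested genes show this separation was not counted. By single libraries, the number of the 30 Medium 2 libraries above the highest Medium 1 library was 30 for IFIT3, 29 for IFIT2, 28 for IFIT1, 26 for IFIT5 and IRF1, 16 for DDX58, 6 for ISG15, 5 for IFIH1 and 2 for IRF9. Untreated Medium 2 was the highest group for 8 of the 9 genes, and for IRF1 it was kynurenine in Medium 2 at 44.3 ± 8.26 CPM (SD, n = 5). The lowest group was butyrate in Medium 1 for IFIT2, IFIT3, DDX58 and IFIH1, hemin plus kynurenine in Medium 1 for IFIT1 and IRF9, kynurenic acid in Medium 1 for IFIT5, untreated Medium 1 for IRF1, and hemin plus kynurenine in Medium 2 for ISG15. Neighbours in this order mostly did not differ beyond their spread, since at most 1 of the 11 neighbouring pairs of a gene had libraries that did not overlap.

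The wider pathway was read from 6 lists that hold 115 other genes of the table, of which 88 passed the filter. Between untreated spheroids, 13 of the 88 were higher in Medium 2 and 1, MAVS, was lower. Of all tested genes, 2.69% were called higher there and 3.69% lower. Averaged over treatments, 35 were higher and 12 lower (22.8% and 23.3% of all tested genes), with a median log2 fold change of 0.12 against -0.005 over all tested genes. The genes named below were those with the smallest p of each list in that average.

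Among interferon ligands, IFNL1, a type III interferon that acts on epithelium, was at 31 ± 4.92 CPM in untreated Medium 2 and 10.9 ± 2.73 CPM in untreated Medium 1 (SD, n = 5 each), a log2 fold change of 1.52 (adjusted p = 1.22e-05, SE 0.25). Its log2 fold change over treatments was 1.25. IFNL2 was higher over treatments by 1.18, but it is a near-identical copy of IFNL3 and its counts are uncertain. The other 5 ligands fell below the filter, and IFNB1, the first type I interferon made on RNA sensing, had 71 counts over the 30 Medium 2 libraries and 25 over the 30 Medium 1 libraries. IFNE, another type I interferon, had 12 counts in Medium 2 and 37 in Medium 1. IFNG and IFNK had 0 counts in the table.

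Of 16 tested genes of receptor and STAT signalling, 3 were higher and 4 lower over treatments. These counts lie near the shares over all tested genes, 22.8% higher and 23.3% lower. USP18, the feedback inhibitor at the interferon receptor, was higher by 0.67 on the log2 scale (adjusted p = 1.88e-13) and the lambda receptor chain IFNLR1 by 0.34 (adjusted p = 0.00668). STAT2 fell by 0.68 (adjusted p = 5.62e-07), the kinase TYK2 by 0.56 (adjusted p = 3e-06) and JAK2 by 0.45 (adjusted p = 0.00174). Of 15 tested sensing genes, 3 were higher and 4 lower, also near those shares. The RNA-binding antiviral protein ZC3HAV1 was higher by 0.45 and the editing enzyme ADAR by 0.17. MAVS, the adaptor of both sensors, fell by 0.42 (adjusted p = 5.64e-11), TRIM25, a ubiquitin ligase of the RIG-I pathway, by 0.28, IRF3 by 0.52 and the kinase IKBKE by 0.53.

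All 3 tested genes of ISG15 conjugation were higher in Medium 2 over treatments: USP18, which removes ISG15, the conjugating enzyme UBE2L6 by 0.26 and the ligase HERC5 by 0.35 on the log2 scale. For this and the next lists, the shares over all tested genes were 22.8% higher and 23.3% lower. Of 19 tested genes of the IRF1 and antigen presentation list, 10 were higher and 2 lower, with the chemokine CXCL10 at 1.16, the checkpoint ligand CD274 at 0.64, B2M at 0.29, the proteasome activator PSME1 at 0.27, HLA-B at 0.26 and HLA-E at 0.23. Of 34 other antiviral genes, 15 were higher and 2 lower. The named ones were CMPK2 at 0.93, OASL at 0.89, IFI27 at 0.60, IFI6 at 0.50, SAMD9 at 0.37 and IFITM3 at 0.33, all adjusted p under 3e-06. HLA-B, HLA-E and IFITM3 have close paralogs, so how their reads were shared out is uncertain. Some widely used interferon-stimulated genes were close to absent, such as MX1 with 69 counts over the 30 Medium 2 libraries and 91 over the 30 Medium 1 libraries, and IFI44L with 72 counts in Medium 2 and 98 in Medium 1. Both were named after their values were seen.

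**Figure D3:**
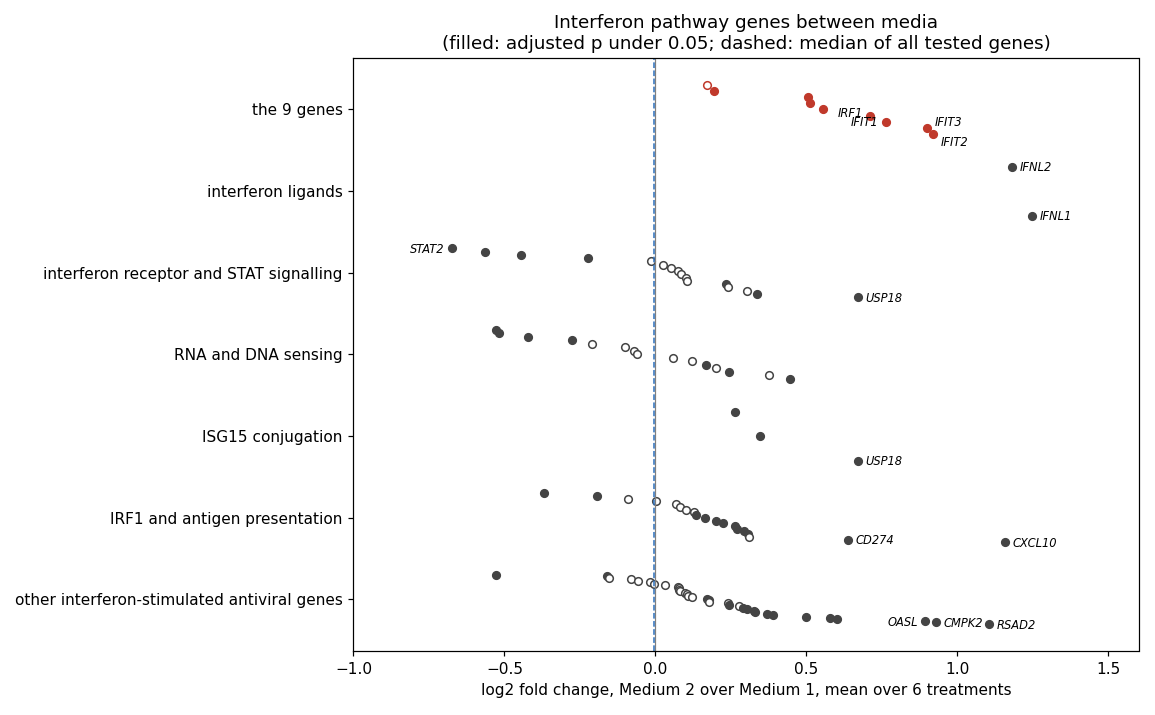
Log2 fold change of Medium 2 over Medium 1, averaged over 6 treatments, for the 9 genes (red) and the tested genes of 6 pathway lists (grey), one point per gene; filled points passed an adjusted p of 0.05 and the dashed line is the median of all tested genes. Interferon ligands lie above 1, while the receptor and sensing lists spread to both sides, from -0.68 for STAT2 to 0.67 for USP18.

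Each exposure was then set against untreated spheroids of its medium. The 5 comparisons of a medium share its untreated libraries, so their directions are not separate observations. In Medium 2, 2 of the 9 genes fell with hemin plus kynurenine (0.248% of all tested genes called lower) and 1 fell with kynurenine (0.00885%). No member was called higher by any exposure in either medium, where 0.310% of all tested genes were higher with hemin plus kynurenine and 0.0177% with kynurenine in Medium 2.

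IFIT2 with hemin plus kynurenine in Medium 2 was at 61.56, 122.7, 128, 134.8 and 120.4 CPM, below all 5 untreated libraries, of which the lowest was at 183.6 CPM. The log2 fold change was -0.90 (adjusted p = 0.000216, SE 0.15), a level 0.536 times that of untreated spheroids. The library in well H7 gave the lowest value, and without it the log2 fold change was -0.75 (adjusted p = 0.00222). IFIT3 in the same spheroids was at 266.1, 232, 183.4, 207 and 219.3 CPM, all below the lowest untreated library at 268.1 CPM. It passed narrowly, with a log2 fold change of -0.47 (adjusted p = 0.0433, SE 0.12), and lost the call in 8 of 10 fits that left out 1 library, with log2 fold changes from -0.56 to -0.40. How many of all tested genes lacked overlap between hemin plus kynurenine and untreated libraries was not counted. ISG15 was lower in mean but not called, at 112.5 ± 34.6 CPM with hemin plus kynurenine and 188 ± 59.9 CPM untreated (SD, n = 5 each), with a log2 fold change of -0.74 and an adjusted p of 0.0705. IRF1 had a positive value of 0.14 (95% interval -0.15 to 0.44).

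IFIT1 with kynurenine in Medium 2 was at 389, 414.7, 315, 418.3 and 347.8 CPM, below the lowest untreated library at 498.5 CPM. The log2 fold change was -0.52 (SE 0.11) and the adjusted p of 0.0498 lay at the threshold. The call was lost in 8 of 10 fits that left out 1 library, and its adjusted p ranged from 0.00751 to 0.656 over the other settings. IFIT2, IFIT3 and IFIT5 with kynurenine also had no overlap with untreated libraries, with log2 fold changes of -0.61, -0.54 and -0.48, but they did not pass (adjusted p of 0.117, 0.0836 and 0.195). How many of all tested genes lacked overlap there was not counted. IRF1 with kynurenine was at 53.77, 36.95, 34.38, 48.14 and 48.28 CPM, around the untreated values, with a log2 fold change of 0.17 (95% interval -0.14 to 0.47).

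Butyrate, hemin and kynurenic acid in Medium 2 gave no call among the 9 genes by edgeR. At an unadjusted p under 0.05 there were 6, 5 and 5 of them, and DESeq2 called 0, 0 and 1. The shares of all tested genes called at an adjusted p under 0.05 were 0, 0 and 0.0177%. The share of all tested genes at an unadjusted p under 0.05 was not counted, here or in the comparisons below. IFIT1 with butyrate, at 393 ± 66.5 CPM against 538 ± 34.5 CPM untreated (SD, n = 5 each), had the smallest p of all 11298 genes in that comparison, with a log2 fold change of -0.46 and an adjusted p of 0.56. IFIT2 ranked 4th there, and with kynurenic acid it ranked 3rd, at 132 ± 13.4 CPM against 212 ± 34.4 CPM untreated (SD, n = 5 each), a log2 fold change of -0.68 and an adjusted p of 0.0792. Neither passed.

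In Medium 1 no member was called by edgeR or DESeq2 under any of the 5 exposures. The share of all tested genes called was 0.00885% with butyrate, 0.133% with hemin, 0.0354% with kynurenine, 0 with kynurenic acid and 0.0266% with hemin plus kynurenine. At an unadjusted p under 0.05 there were 3 members with butyrate, 2 with hemin, 2 with kynurenine, 1 with kynurenic acid and 4 with hemin plus kynurenine. IRF9 with hemin plus kynurenine had the lowest value, at 4.32 ± 1.16 CPM against 8.47 ± 3.01 CPM untreated (SD, n = 5 each), a log2 fold change of -0.98 with a 95% interval of -1.56 to -0.40 and an adjusted p of 0.917. IRF1 had positive log2 fold changes with all 5 exposures, from 0.08 with butyrate to 0.41 with kynurenine, none of which passed.

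**Figure D4:**
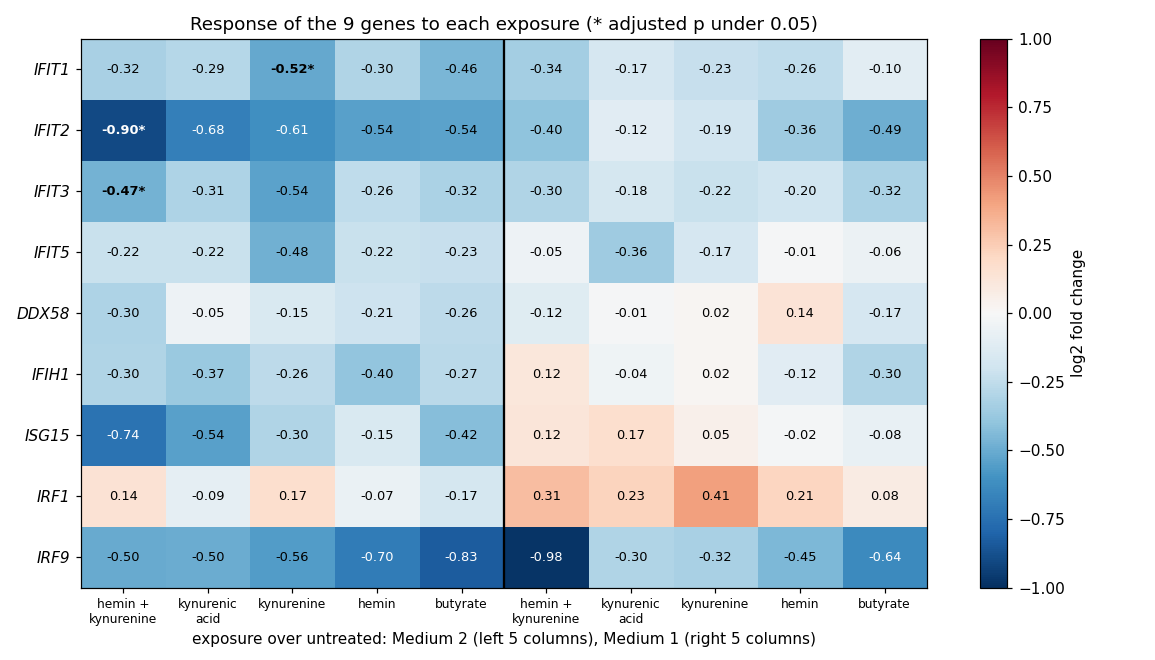
Log2 fold change of each exposure over untreated spheroids for the 9 genes, in Medium 2 (left 5 columns) and Medium 1 (right 5 columns), with colour from blue (lower) to red (higher) and a star where the adjusted p was under 0.05. The 3 starred cells are IFIT2 and IFIT3 with hemin plus kynurenine and IFIT1 with kynurenine, all in Medium 2, and the columns of a medium share its untreated libraries.

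Averaged over the media, IFIT1 fell with kynurenine, at a log2 fold change of -0.37 (adjusted p = 0.0241, SE 0.08), where 0.0177% of all tested genes were called lower. With hemin plus kynurenine IFIT2 fell, at -0.65 (adjusted p = 0.000298, SE 0.11) and so did IFIT3, at -0.39 (adjusted p = 0.0308, SE 0.09), where 0.0620% were called lower. The calls of IFIT1 and IFIT3 were each lost in 8 of 20 fits that left out 1 library, while that of IFIT2 was lost in none of them. No member passed with butyrate, hemin or kynurenic acid by edgeR, where 0, 0.0177% and 0 of all tested genes were called, with 6, 5 and 5 members at an unadjusted p under 0.05 and 1, 1 and 0 by DESeq2. IFIT2 with butyrate had the smallest p of all 11298 genes in that average, with a log2 fold change of -0.51 (SE 0.11) and an adjusted p of 0.0644. Among the other pathway genes, the ligase HERC5 fell with hemin plus kynurenine in Medium 2 (log2 fold change -0.60, adjusted p = 0.0103) and OASL fell with kynurenine averaged over media (log2 fold change -0.68, adjusted p = 0.0351).

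The difference of each response between media was tested directly. No member passed by edgeR or DESeq2, where at most 0.0266% of all tested genes were called. The number at an unadjusted p under 0.05 was 1 with butyrate, 0 with hemin, 0 with kynurenine, 2 with kynurenic acid and 2 with hemin plus kynurenine. The largest was ISG15 with hemin plus kynurenine, a difference of -0.86 on the log2 scale (95% interval -1.45 to -0.28, adjusted p = 0.371). For IFIT2 with hemin plus kynurenine, called in Medium 2 and not in Medium 1, the difference of responses was -0.50 (95% interval -0.92 to -0.07, adjusted p = 0.531), so the responses of the media were not shown to differ. The combination was also set against the sum of hemin and kynurenine given alone. No member passed by edgeR or DESeq2, with 3 in Medium 2 and 0 in Medium 1 at an unadjusted p under 0.05. In Medium 2 IFIT1 lay above that sum by 0.49 (95% interval 0.18 to 0.79) and IFIT5 by 0.48 (95% interval 0.13 to 0.84), with adjusted p of 0.196 and 0.255.

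Kynurenic acid and kynurenine, of which the acid is made from kynurenine by transamination and ring closure, were given at the same labelled dose. Each of the 9 genes was compared in both media, and none of the 18 differences passed by edgeR or DESeq2 (0.00885% of all tested genes called in Medium 2 and 0.0354% in Medium 1), with 2 in Medium 2 and 0 in Medium 1 at an unadjusted p under 0.05. IFIT1 in Medium 2 was at 441 ± 43.2 CPM with kynurenic acid and 377 ± 44.6 CPM with kynurenine (SD, n = 5 each), a log2 difference of 0.23 with a 95% interval of 0.01 to 0.44 (adjusted p = 0.807). IFIT5 in Medium 2 differed by 0.26 (95% interval 0.01 to 0.52). IFIT2 in Medium 2 differed by -0.07 (95% interval -0.37 to 0.23), and in Medium 1 by 0.07 (95% interval -0.24 to 0.38).

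Within groups, members varied in part independently. After each group mean was subtracted from log2 CPM, Pearson's r over the 60 libraries was 0.58 between IFIT1 and IFIT3, 0.59 between IFIT2 and IFIH1 and 0.55 between IFIH1 and ISG15. IFIT1 and IFIT2, both on chromosome 10 with IFIT3 between them, gave -0.10, and ISG15 and IRF9 gave -0.27. These are descriptions over libraries that share plate and run, and each member's r with the log2 library total lay between -0.20 and 0.19. In Medium 2 with hemin plus kynurenine, well H7 was the lowest library for IFIT2, IFIH1 and ISG15, at 61.56, 22.77 and 60.72 CPM. How much the r between these genes rests on that library was not tested. Replicate spread differed between genes: the median coefficient of variation over groups was 10.6% for IFIT5, 11.5% for IFIT1, 14.9% for IFIT2 and IRF1, 20.8% for ISG15 and 26.9% for IRF9, with 6 to 33 counts per library.

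**Figure D5:**
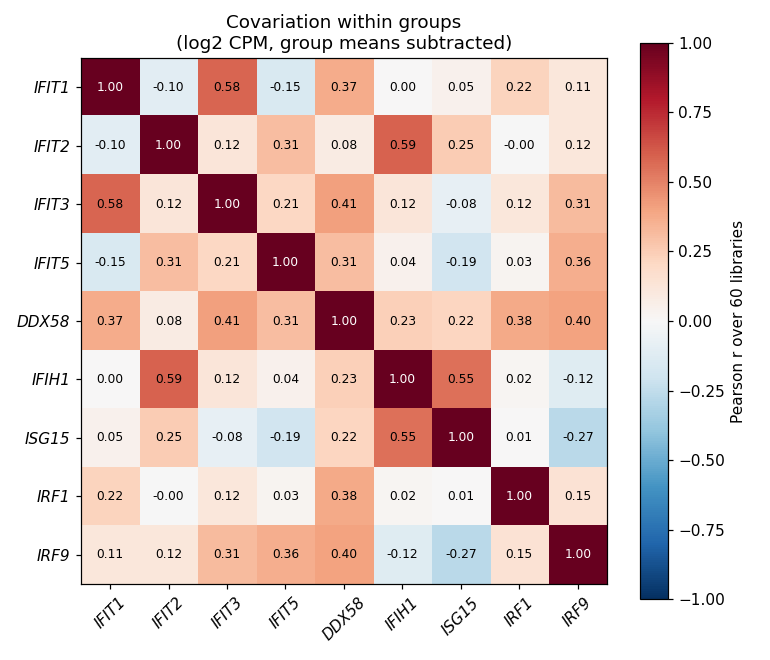
Pearson's r between members over 60 libraries, from log2 CPM with each group's mean subtracted, on a colour scale from -1 (blue) to 1 (red). The pairs IFIT1 with IFIT3, IFIT2 with IFIH1 and IFIH1 with ISG15 stand out at 0.55 to 0.59, while IFIT1 with IFIT2 is at -0.10.

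A score for the 4 IFIT genes, the mean of their standardised log2 CPM, was 1.59 in untreated Medium 2 and 0.39 to 0.90 in the exposed groups of Medium 2, against -0.44 in untreated Medium 1 and -0.99 to -0.86 in the exposed groups of Medium 1. Of 8677 other genes with a mean of at least 10 CPM, those most like it over the 12 group means, which fall into 2 clusters by medium, were USP18 (r = 0.98), PSAP (0.98), DNAJB4 (0.97), XBP1 (0.97) and BHLHE40 (0.97), where the 99th percentile of all genes was 0.93. Within groups over the 60 libraries, the highest were MRPS28 (r = 0.69), JUN (0.68), PGK1 (0.67), PERP (0.65) and DARS (0.65), where the 99th percentile was 0.51. No gene was in both sets of 5.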

How the data were processed

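RNA from 60 spheroid samples was read with a QuantSeq 3' FWD kit with molecular identifiers, from 48 ng of RNA and 18 PCR cycles, per the labels' protocols. Salmon 1.5.2, STAR, cutadapt 3.4, UMI-tools 1.1.2 and FastQC 0.11.9 with GRCh38 are listed, without order or settings, per the submitters' processing notes. The authors deposited estimated counts per gene, of which 10.1% of values were not whole (tolerance 1e-06). These were rounded here.

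Groups came from the sample titles, and columns were matched to groups by name. Genes were kept by edgeR's filterByExpr (minimum count 10, minimum total 15), which retained 99.62% of counts. One quasi-likelihood model (edgeR 4.0.16, R 4.3.3, TMM scaling, common dispersion 0.0316) had a mean for each of 12 groups and 48 residual degrees of freedom. It gave 31 contrasts with two-sided F-tests, adjusted by Benjamini-Hochberg over 11298 genes. SE is the absolute log2 fold change over the square root of F, and intervals are 95%. Pairs of libraries within a group differed by 2.21 to 20.8 times sampling noise (chi-square per degree of freedom), and each library was counted as 1 replicate. DESeq2 1.42.0 and other settings served as alternatives.

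The 9 genes, the lists, the contrasts and the alternatives were chosen with earlier results of these data known. All 9 genes are named, while the pathway lists are not reported here in full. Each list contributes up to 6 genes by p in the average over treatments, plus any called with an exposure, and the genes most like the IFIT score are the 5 with the highest r. Positions and promoters are from RefSeq and gene overlaps from GENCODE, matched by symbol.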

Additional observations from a re-analysis of the deposited data

Results flagged for a closer look

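In each group of 5, the gap between the farthest library and its nearest neighbour was set against Dixon's 95% critical value for 5 values. Of 108 sets of 5 libraries, 6 were beyond it, and chance gives about 1 in 20. IFIT2 with hemin plus kynurenine in Medium 2 was at 61.56 CPM in well H7, against 120.4 to 134.8 CPM in the other 4 libraries. IFIT2 with kynurenine in Medium 1 was at 62.39 CPM in well H2, against 83.67 to 87.22 CPM. IFIT1 with hemin plus kynurenine in Medium 1 was at 292.3 CPM in well E4, against 206.9 to 218.7 CPM. DDX58 in untreated Medium 1 was at 60.52 CPM in well C1, against 74.59 to 78.7 CPM. IFIH1 with hemin in Medium 1 was at 22.87 CPM in well C2, against 32.3 to 33.61 CPM. ISG15 with kynurenic acid in Medium 1 was at 102.5 CPM in well H3, against 145.9 to 162.6 CPM.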

How the results depend on the processing

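No paired analysis was possible because the table's columns carry no replicate number. Over settings other than leaving out a library, 2182 of 2223 gene-by-contrast results kept their side of the threshold, 23 gained a call, 18 lost one, and no called value changed sign. Uncalled values near 0 could change sign, as ISG15 did between media with kynurenine (log2 fold changes of -0.09 to 0.27). Between untreated media, fitting only the groups compared called 1134 genes (548 higher, 586 lower) against 721 (304 higher, 417 lower), and 6 members passed in each fit without 1 library. Within kynurenine, fitting only those groups called 3 members higher in Medium 2, against 5, with the calls of DDX58 and IRF1 lost. Kynurenine in Medium 2 lowered 3 members with DESeq2 and 0 with thinned counts, plate row as a term, RLE scaling, no filter, only the groups compared, or library totals over all genes, the last added after seeing the data; without 1 library it was 0 to 1. Averaged over media, kynurenine lowered 2 with DESeq2 and 0 with plate row or only the groups compared, and 0 to 2 without 1 library. Hemin plus kynurenine in Medium 2 lowered 1, IFIT2, with plate row, thinned counts or only the groups compared, 3 with DESeq2 or without wells B2 and A7, and 1 to 2 without 1 library. Averaged over media it lowered 3 with DESeq2 or without wells B2 and A7, 1 with no filter and 1 to 3 without 1 library. Butyrate averaged over media lowered 1 with DESeq2, no filter or only the groups compared, and 0 to 1 without 1 library. Hemin averaged over media lowered 1 with DESeq2 or without wells B2 and A7, 2 with only the groups compared, and 0 to 1 without 1 library. Kynurenic acid in Medium 2 lowered 1 with DESeq2 or only the groups compared, and 0 to 1 without 1 library. The cause of these differences was not tested. The calls of IFIT1, IFIT2, IFIT3, IFIT5, DDX58 and IRF1 between untreated media held in every setting run. So did the call of IFIT2 with hemin plus kynurenine in Medium 2. IRF9, at 6 to 33 counts, limits what depth can show.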
